A study of Mus musculus with 4 samples.

Results

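The cells described here are the enteroendocrine cells of mouse colonic organoids, the hormone-secreting cells of the gut epithelium. They were taken as every cell that the deposited cell table annotates as Enteroendocrine, which gave 109 cells of 6155 in all and of 4172 in the epithelial classes. Wildtype organoids came from C57BL/6 mice and Tnfr2-/- organoids from mice with the B6.129S2-Tnfrsf1b tm1Mwm allele, which lack tumor necrosis factor (TNF) receptor 2 in every tissue, so receptor loss is not limited to the epithelium or to these cells. Both genotypes were 16 weeks old, the tissue was the distal colon, and after passage 5 each genotype was either left untreated or exposed to 20 ng/ml TNF, starting 1 day and ending 6 days after passage, with all cultures dissociated on day 7 and apoptotic cells removed. Each of the 4 conditions is 1 library of single-cell 3′ RNA counts, so no difference between conditions has a replicate check, and no p-value is given. The design text gives 1 culture per condition, and the sources used here do not state the number of mice behind a library.

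Enteroendocrine cells arise in the crypt from secretory progenitors that pass through a brief phase of NEUROG3, the transcription factor that commits them, followed by NEUROD1 and INSM1. They store peptide hormones or serotonin in dense-core granules built around chromogranins and secretogranins, and release them when nutrients, bile acids or bacterial products reach receptors on the cell. In the distal colon the textbook types are L cells, which make peptide YY, proglucagon products and insulin-like peptide 5, and enterochromaffin cells, which make serotonin through tryptophan hydroxylase 1.

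Where 4 values stand together, the untreated and the TNF-treated wildtype library come first, followed by the untreated and the TNF-treated Tnfr2-/- library. These libraries held 33, 31, 18 and 27 enteroendocrine cells with 655879, 869967, 548069 and 487637 UMIs (unique molecular identifiers, 1 per captured RNA molecule) in total. The median cell had 16386, 26763, 23948 and 16407 UMIs, against 37611, 30693, 41228 and 37821 in the other epithelial cells. No enteroendocrine cell shared its barcode with a cell of another library. A level is the summed UMIs of a gene over the summed UMIs of the cells, in counts per 1000000 (CPM), and an interval is the 95% exact Poisson interval for a level or the 95% Clopper-Pearson interval for a share of cells. Both cover counting error only, not differences between cells, cultures or mice.

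The libraries stood apart in ways that touch every comparison of genotype and, in wildtype, that of TNF. Xist, which marks an inactive X chromosome, was seen without a Y-linked transcript in 32 of 33 and 14 of 31 wildtype cells, and Y-linked transcripts without Xist in 1 and 10, so the wildtype TNF library held cells of both kinds, with 1 further cell that had both and 6 that had neither. Of the Tnfr2-/- cells, 18 of 18 and 26 of 27 had neither. The mesenchymal cells of the same Tnfr2-/- libraries did hold Y-linked transcripts, with Ddx3y at 74.9 and 70.0 CPM and Eif2s3y at 41.8 and 33.1 CPM. In the other epithelial cells of these libraries Ddx3y was at 0.02 and 0.025 CPM and Eif2s3y at 0. Relative to the median of all genes tested, the median gene of chromosome 19 lay 0.40 log2 (untreated) and 0.48 log2 (TNF) above wildtype in Tnfr2-/- cells, and that of chromosome 2 lay 0.43 and 0.23 log2 above. The median enteroendocrine cell took 4.31%, 4.15%, 7.34% and 8.29% of its UMIs from chromosome 19, and 9.14%, 9.23%, 7.40% and 6.47% from chromosome 2, a share that was lower in Tnfr2-/- although the median gene was higher. Genotype and these differences cannot be told apart in 1 library per group. Nor can TNF in wildtype be told apart from the difference in Xist and Y-linked transcripts between the wildtype libraries. Tnfrsf1b, the gene of TNF receptor 2, gave 1, 5, 0 and 5 UMIs in enteroendocrine cells, too few to check the labels, and the sources used here do not say whether its 3′ tags lie outside the disrupted part.

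The annotation went with its markers. Chga, which encodes chromogranin A, a core protein of dense-core granules, had a UMI in 106 of the 109 cells (97.2%) and in 3.08% of the other epithelial cells. After every cell was thinned to 5000 UMIs, which left out 4 enteroendocrine and 374 other epithelial cells, these shares were 94.3% and 1.00%. Chgb, the chromogranin B gene, had a UMI in 90.8% and 4.18%, or 81.9% and 0.759% after thinning. The mesenchymal cells of the same cultures, which should lack these genes, had Chga in 0.770% of cells and 0.156% after thinning. Epithelial markers (Epcam, Krt8, Krt18, Cdh1 and Cldn7) summed to 5024 to 7003 CPM in enteroendocrine cells. The 8 markers of tuft cells were all at 0 in 3 libraries and summed to 7.62 CPM in the wildtype untreated library, and the 5 of immune cells summed to at most 3.05 CPM. The 7 mesenchymal markers summed to 250, 70.1, 135 and 16.4 CPM, most of it from Vim, which encodes vimentin, at 206, 65.5, 135 and 14.4 CPM.

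Enteroendocrine cells were 2.93%, 2.67%, 1.76% and 3.15% of the epithelial cells. The intervals were 2.02 to 4.08%, 1.82 to 3.76%, 1.05 to 2.77% and 2.08 to 4.55%, and all of them overlapped. The lowest share was that of the Tnfr2-/- untreated library and the highest that of the Tnfr2-/- TNF library. By a rule set on 5 general markers (at least 2 UMIs of at least 3 of Chga, Chgb, Neurod1, Insm1 and Scg5), 106 of the 109 annotated cells qualified, together with 17 of 4063 other epithelial cells and 0 of 1948 mesenchymal cells. Of those 17, 8 were in the class Progenitor.1 and 5 in Progenitor.2, all 5 in the Tnfr2-/- TNF library. In that library the 6 such cells outside the class carried 84.7% of the Chga UMIs and 92.0% of the Chgb UMIs found in other epithelial cells.

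The secretory products took a large part of the RNA. Genes of 18 hormones made up 8.92%, 7.49%, 2.47% and 3.87% of enteroendocrine UMIs, against at most 0.0104% in the other epithelial cells. Genes of 16 granule proteins made up 4.56%, 5.03%, 3.52% and 2.63%. Both shares were lower in the Tnfr2-/- libraries than in the wildtype libraries. Since more of one product leaves less room for all else within a library's total, levels were also computed on totals without these genes.

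Pyy, the gene of peptide YY, which slows gut transit and signals satiety, was the most abundant hormone transcript in each of the 4 libraries, at 68420, 62480, 15390 and 28980 CPM. It was more than 2-fold lower in Tnfr2-/- in both pairs, by 2.15 log2 untreated and 1.11 log2 with TNF. The level came from few cells: 14, 19, 6 and 9 cells had a UMI, and a single cell held 32%, 30%, 39% and 56% of all Pyy UMIs. In the other epithelial cells Pyy was at 5.05, 8.57, 2.93 and 35.4 CPM. The last of these fell to 11.7 CPM without the 6 cells outside the class that met the marker rule, which held 67.5% of those UMIs.

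Insl5, the gene of insulin-like peptide 5, an orexigenic hormone of distal L cells, was at 13370, 6523, 3979 and 957.7 CPM. It was lower in both Tnfr2-/- libraries and lower with TNF in both genotypes, but in the Tnfr2-/- TNF library 1 cell held 99.4% of its UMIs. Gcg, which encodes proglucagon and thereby the incretin GLP-1, was at 5606, 401.2, 895.9 and 2520 CPM, from 6, 5, 3 and 2 cells. In the Tnfr2-/- libraries 1 cell held 97.2% and 99.9% of the Gcg UMIs, so these levels describe single cells. Without the highest cell of each library, both fell below 20 CPM in the Tnfr2-/- TNF library, Gcg to 2.26 CPM and Insl5 to 6.77 CPM. In that library 3 counts give 6.15 CPM, so too little was left there to compare with the other epithelial cells. In the wildtype libraries and the untreated Tnfr2-/- library, Gcg remained above those cells by at least 4.7 log2 and Insl5 by at least 10.88 log2.

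Cck, the gene of cholecystokinin, a hormone better known from the small intestine, was at 583.9, 3637, 625.8 and 3507 CPM. It was higher with TNF in both genotypes, by 2.64 log2 in wildtype and 2.48 log2 in Tnfr2-/-, and the untreated and treated libraries did not overlap. It had a UMI in 14 of 33, 20 of 31, 13 of 18 and 20 of 27 cells, so the difference in level was larger than that in the number of cells with a UMI. The highest cell held 55%, 66%, 34% and 72% of the Cck UMIs, yet the gene stayed 2-fold higher with TNF in both genotypes without those cells. In the other epithelial cells Cck was at 0.986, 4.22, 1.56 and 2.88 CPM. The mesenchyme also made it, at 265, 2246, 389 and 1250 CPM, and there too it was higher with TNF in both genotypes. At least 1000 Cck UMIs per 1000000 were held by 252 of 1948 mesenchymal cells, or 7.06%, 33.0%, 5.56% and 36.9% by library. The part of RNA from mesenchymal cells in the enteroendocrine values was not tested.

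Ghrl, which encodes ghrelin, was at 195, 1159, 3029 and 1378 CPM, and Ppy, the gene of pancreatic polypeptide, at 65.6, 20.7, 434 and 1140 CPM. Both rested on few cells, with Ghrl in 6, 4, 5 and 3 cells and Ppy in 2, 2, 3 and 2. Ppy was called higher in Tnfr2-/- in both pairs, and 1 of 3 cells held 99.2% of its UMIs in the untreated Tnfr2-/- library, without which, and without the highest cell of the wildtype library, it was at -1.82 log2 relative to wildtype. Tac1, the gene of substance P, was at 864.5, 626.5, 169.7 and 49.2 CPM and was lower in Tnfr2-/- in both pairs. Sct, the secretin gene, stayed at 16.4 to 175 CPM. Somatostatin (Sst), gastric inhibitory polypeptide (Gip), neurotensin (Nts) and neuropeptide Y (Npy) had 0 UMIs in the 109 cells. The level that 3 counts would give was 3.45 to 6.15 CPM per library.

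**Figure D1:**
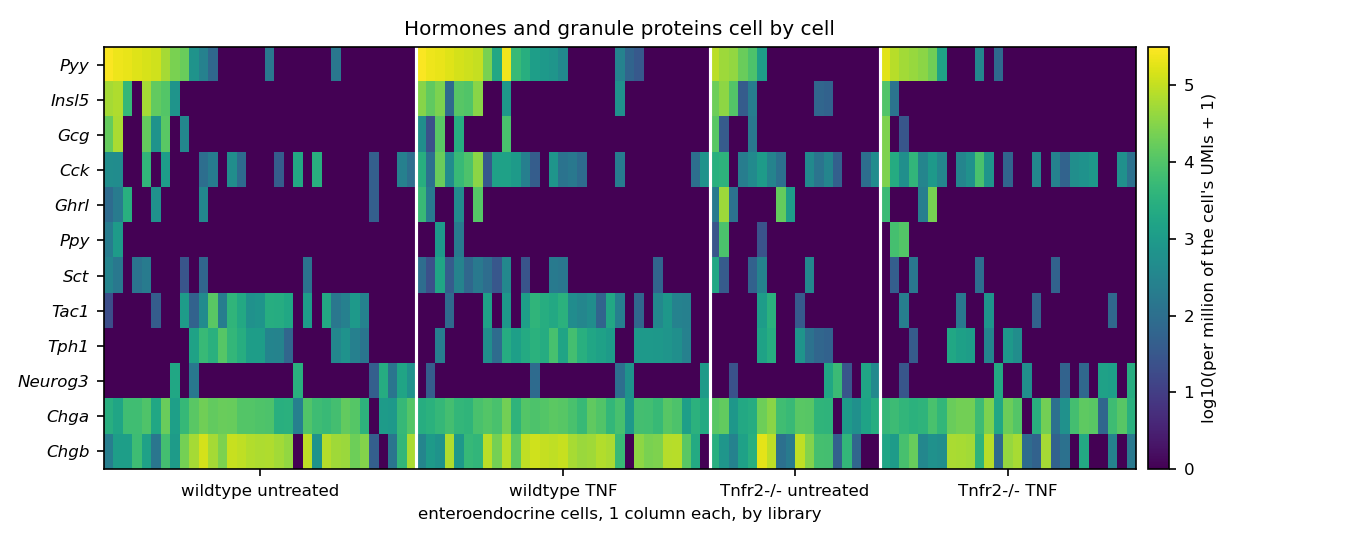
Each column is 1 of the 109 enteroendocrine cells, grouped by library, and colour gives log10 of the UMIs per 1000000 of that cell, plus 1. Chga fills nearly every column, with a UMI in 106 cells, whereas Pyy and Tph1 mark mostly different cells, and the 16 Insl5-high and 9 Gcg-high cells lie within the columns high for Pyy.

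To ask which products one cell made together, a cell was counted as high for a product when that gene gave at least 1000 UMIs per 1000000 of the cell, over 10 peptide hormones and Tph1. By this cut 35 cells were high for Pyy (32.1%, interval 23.5 to 41.7%), 25 for Tph1 (22.9%), 18 each for Cck and Tac1 (16.5%), 16 for Insl5 (14.7%), 9 for Gcg (8.26%) and 8 for Ghrl (7.34%). Among 4063 other epithelial cells, 7 were high for Pyy (0.172%), 7 for Tac1, 4 for Cck, 2 for Tph1, and 0 for Insl5 or Gcg. The cut lay in a sparse range for Pyy, where 7 enteroendocrine cells were within 2-fold of it, and for Insl5, with 3, but not for Tph1, with 21, or Cck, with 16. Of the 109 cells, 29 were high for 1 product, 19 for 2, 18 for 3 or more and 43 for none.

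The peptides of L cells went together. All 16 Insl5-high cells and all 9 Gcg-high cells were also Pyy-high, and 8 of the 9 Gcg-high cells were Insl5-high. Of 18 Cck-high cells, 15 were Pyy-high, and 6 of 8 Ghrl-high cells were. Over the 109 cells Spearman's rho was 0.70 for Pyy with Insl5 (0.76, 0.75, 0.77 and 0.54 within the libraries) and 0.62 for Pyy with Gcg. These values describe cells that share 4 libraries, and many of the ranks are ties at 0.

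Serotonin-making cells stood mostly apart. Tph1, the rate-limiting enzyme of serotonin synthesis outside the nervous system, was at 768.4, 1090, 222.6 and 201 CPM. It was lower in Tnfr2-/- in both pairs, and the genotypes did not overlap. Of the 25 Tph1-high cells, 11 were Tac1-high and 5 Pyy-high, and 0 were Insl5-high. Of those 5 Pyy-high cells, 4 were in the wildtype TNF library. Spearman's rho was 0.68 for Tac1 with Tph1, and for Insl5 with Tph1 it was -0.34. Tph1-high cells were 24.2%, 38.7%, 11.1% and 11.1% of enteroendocrine cells, with intervals of 11.1 to 42.3%, 21.9 to 57.8%, 1.38 to 34.7% and 2.35 to 29.2%, so the shares of the genotypes could not be separated at this number of cells. A Tph1 UMI was found in 15, 21, 6 and 7 cells, and after thinning in 13 of 31, 16 of 29, 4 of 18 and 6 of 27, against 0.108% of the other epithelial cells.

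**Figure D2:**
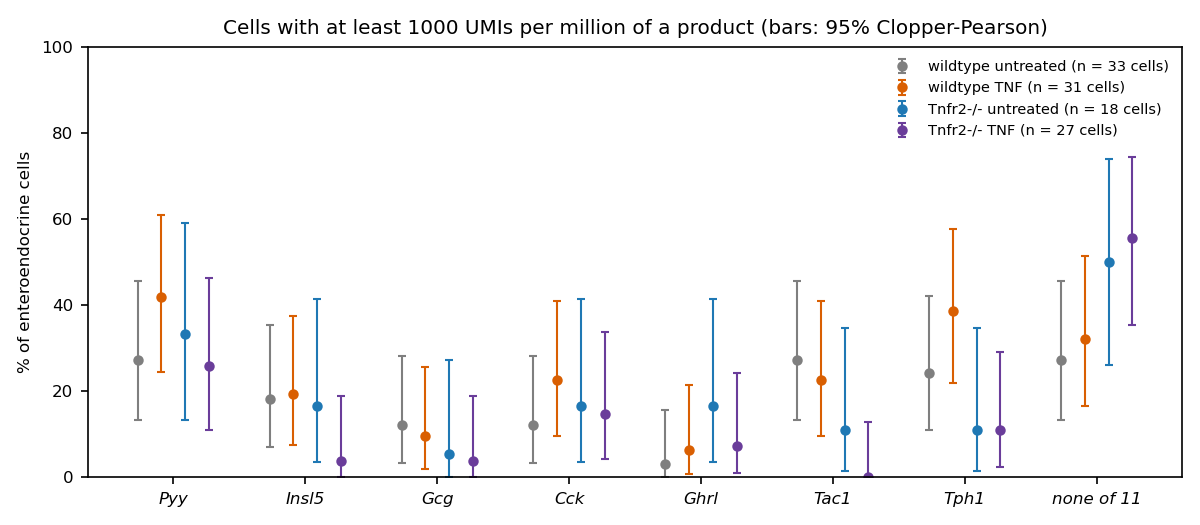
The share of enteroendocrine cells with at least 1000 UMIs per 1000000 of each product, by library, and the share with none of the 11 products at that level, with 95% Clopper-Pearson intervals. Point values for Tph1, Tac1, Gcg and Insl5 were lower in both Tnfr2-/- libraries than in both wildtype libraries, and the share without a product was higher, with overlapping intervals except for Tac1 between the wildtype untreated library (13.3 to 45.5%) and the Tnfr2-/- TNF library (0 to 12.8%).

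Sets of cells, formed after these values were seen, show what went with the products. The peptide set was the 30 cells high for Pyy, Insl5 or Gcg and not Tph1, the Tph1 set the 20 cells high for Tph1 and none of those 3 peptides, and the low-product set the 43 cells high for none of the 11 products. Of the other 16 cells, 5 were high for both kinds and 11 for another product only. The sets held 9, 9, 5 and 7 cells, 8, 8, 1 and 3 cells, and 9, 10, 9 and 15 cells of the libraries. Their median depths were 33907, 16297 and 16277 UMIs, so the Tph1 and low-product sets gave less RNA per cell in which to see a gene.

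Chgb differed between the sets. It was at 8207 CPM in the peptide set, 80790 CPM in the Tph1 set and 16240 CPM in the low-product set, and the Tph1 set was above the peptide set in each of 4 libraries. Chga was at 5168, 14010 and 5247 CPM. Secretogranin 2 (Scg2) and secretagogin (Scgn), a calcium sensor, ran the other way, at 2215 and 167 CPM in the peptide set against 895 and 23.1 CPM in the Tph1 set. Of 15 listed granule protein genes at 20 CPM in either set, 3 were at least 2-fold higher in the Tph1 set (20.0%) and 2 lower (13.3%). Over all 7255 genes at that level, 17.1% were higher and 5.65% lower. The sets thus differed in some granule protein genes, while most of the list did not differ by 2-fold.

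Of 8 listed serotonin genes at 20 CPM in either set, 5 were at least 2-fold higher in the Tph1 set than in the peptide set and Maoa was lower. Tph1 chose the set, so its place among the 5 was fixed in advance. Over all genes at that level, 17.1% were higher and 5.65% lower. Ddc, the decarboxylase that completes synthesis, was at 303.7, 1444 and 667 CPM in the peptide, Tph1 and low-product sets. Slc18a1, which encodes the vesicular transporter VMAT1, was at 80.2, 464 and 158 CPM, while Slc18a2, which encodes VMAT2, had 0 UMIs in the 109 cells. The transcription factor Lmx1a, known to act in enterochromaffin cells, was at 5.41, 136 and 43.5 CPM. Fev was at 186.5, 233 and 174 CPM, and the Tph1 set was above the peptide set in 2 of 4 libraries. Slc6a4, which encodes the serotonin reuptake transporter, gave 2 UMIs from 1 cell, and Trpa1, a channel that senses irritants in enterochromaffin cells, gave 2 UMIs.

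Isl1, Pax6 and Etv1, transcription factor genes, were highest in the peptide set. Of 24 listed factors at 20 CPM in either set, however, 11 were at least 2-fold higher in the Tph1 set and 4 lower. The shares over all genes at that level were 17.1% and 5.65%. Isl1 was at 119 CPM in the peptide set (25 of 30 cells), 2.57 CPM in the Tph1 set (1 of 20) and 96.3 CPM in the low-product set (8 of 43), and Pax6 at 58.6, 7.70 and 13.2 CPM. Etv1 was at 465, 290 and 142 CPM. Among receptors and channels, Avpr1b, which encodes a vasopressin receptor, was at 195, 2.57 and 0 CPM, and Abcc8, which encodes the sulfonylurea receptor of ATP-sensitive potassium channels, at 72.1, 2.57 and 22.4 CPM. Slc5a1, the gene of the glucose transporter SGLT1, was at 106, 25.7 and 42.2 CPM.

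Of 11 listed excitability genes at 20 CPM in either set, 5 were at least 2-fold higher in the Tph1 set than in the peptide set and 2 were lower, and of 17 exocytosis genes 6 were higher and 0 lower. Over all 7255 genes at that level, 17.1% were higher and 5.65% lower. Scn3a, a voltage-gated sodium channel, was at 713 against 92.8 CPM, the vesicle GTPase gene Rab3c at 418 against 46.9 CPM, and the fusion protein gene Snap25 at 223 against 64.9 CPM. The somatostatin receptor gene Sstr1 was at 121 against 16.2 CPM. Ffar2, the receptor for short-chain fatty acids, was at 233, 318 and 195 CPM and was found in 28 of 30, 18 of 20 and 32 of 43 cells, so it belonged to neither set alone. Ffar1, Ffar3, Gpbar1 and Gpr119, receptors for long- and short-chain fatty acids, bile acids and lipid amides, were each under 20 CPM in every library, and Casr, the calcium-sensing receptor, was at 0.

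The low-product set carried the early factors. Neurog3 was at 556 CPM in it against 29.7 CPM in the peptide set and 7.70 CPM in the Tph1 set, and it was the highest of the 3 in each of 4 libraries. A Neurog3 UMI was seen in 20 of the 43 cells (46.5%, interval 31.2 to 62.4%), 4 of 30 and 1 of 20, although the median depth of the low-product set was under that of the peptide set. Pax4 was at 154, 12.6 and 51.3 CPM in the low-product, peptide and Tph1 sets, Insm1 at 711, 255 and 452 CPM, Sox4 at 1183, 314.5 and 849 CPM and Hes6 at 411, 153 and 254 CPM. Neurod1 was found in all 43 cells, at 716 CPM. Of these 43 cells, 36 had a UMI of at least 1 product and 7 had none, and 15 had their highest product within 2-fold of the cut, so the set is a range and not a type. Proliferation genes were low in it, with Mki67 in 2 cells, 1 of which held 98% of its UMIs.

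**Figure D3:**
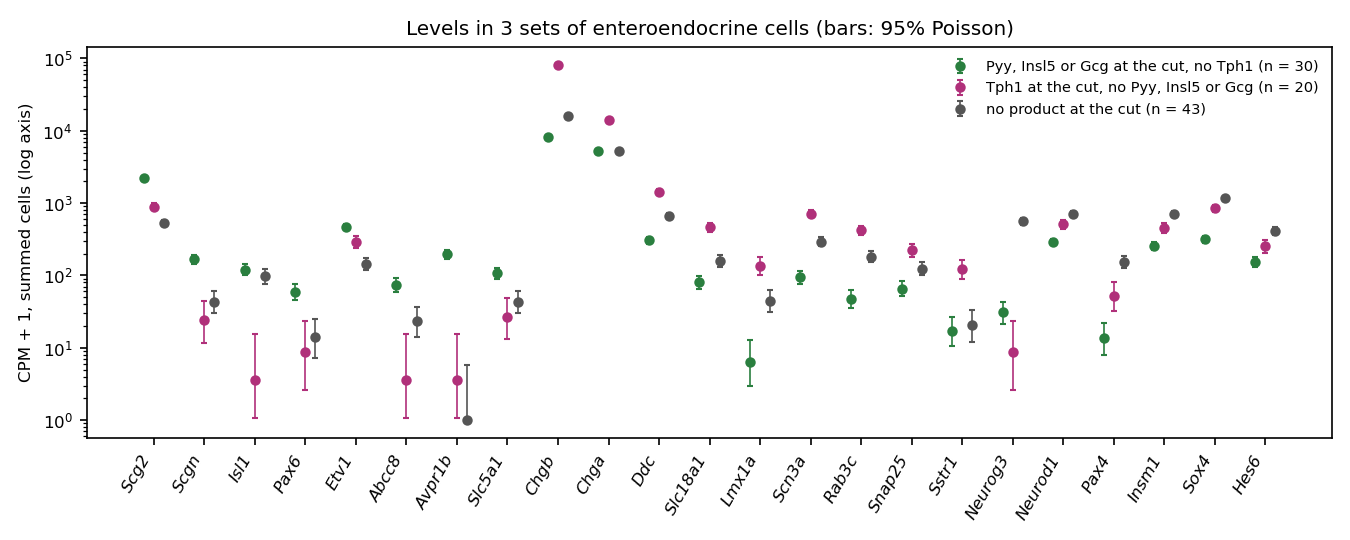
Summed CPM plus 1 on a log axis for 23 genes in the peptide set, the Tph1 set and the set without a product at the cut, with 95% Poisson intervals. From left to right lie genes highest in the peptide set (Scg2 at 2215 CPM), genes highest in the Tph1 set (Chgb at 80790 CPM) and genes highest in the low-product set (Neurog3 at 556 CPM).

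Against the other epithelial cells of the same library, 567 genes were at least 2-fold higher in enteroendocrine cells in 4 of 4 libraries, of 5832 genes that reached 20 CPM in either kind of cell in every library (9.72%), and 237 were at least 2-fold lower (4.06%). The classes were made by clustering these cells, so this is a description of the class and not a test of it. On TMM scaling the counts were 313 higher and 535 lower, and the median of all genes moved from between 0.20 and 0.28 log2 to between -0.35 and -0.23 log2. The genes named below as higher lay above that shift by several log2 units.

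The 20 genes with the largest smallest difference over the 4 libraries were led by the hormones Pyy, Insl5 and Gcg, followed by Chga, Scg2, Cck, Pcsk1n and Chgb. Each of these was above the other epithelial cells by 7.59 log2 or more in every library. Chga was the steadiest of the products, at 7068, 6989, 6521 and 7772 CPM against 9.02, 3.26, 2.42 and 21.5 CPM. Beyond the products, the 20 held the transcription factors Etv1, Neurod1, Runx1t1 and Fev, the sodium channel gene Scn3a, the calcium channel subunit gene Cacna2d1, the neurofilament gene Nefm and Rimbp2, which links calcium channels to release sites. The 20 were completed by Ghrl, Scg5, Vwa5b2 and Fam183b, whose smallest differences were 6.60 to 6.70 log2. Etv1 was at 288, 359, 356 and 299 CPM against at most 0.585 CPM elsewhere in the epithelium.

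Most listed genes of enteroendocrine function that reached the level were higher. All 13 granule protein genes that reached the level were 2-fold higher in 4 of 4 libraries, as were all 14 of exocytosis, all 6 of excitability, 18 of 20 transcription factors, 6 of 7 receptors, 7 of 7 hormones and 4 of 6 serotonin genes. A gene that reaches the level mainly through these cells had to differ, so these counts are set beside the members that were too low: 3 of 16, 4 of 18, 12 of 18, 11 of 31, 19 of 26, 11 of 18 and 5 of 11. The median differences of the granule proteins were 7.45, 7.12, 6.82 and 6.75 log2, against 0.21, 0.20, 0.22 and 0.28 log2 for all genes. Of 50 genes in the reference list that the study used for this cell type, 36 reached the level and all 36 were higher.

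Among granule genes, the prohormone convertase gene Pcsk1 was at 293, 297, 126 and 199 CPM, and Pcsk2, a related convertase gene, at no more than 6.10 CPM. Carboxypeptidase E (Cpe), which trims processed peptides, was at 858, 899, 670 and 800 CPM. Pcsk1n, which encodes an inhibitor of the convertase, was at 1433, 1890, 1191 and 941 CPM. Of the fusion machinery, Snap25 was at 114, 145, 67.5 and 113 CPM.

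Genes of the other programs of these organoids were low. The 10 lowest by the rule were Krt14, Areg, Agr2, Muc2, Spink4, Prr9, 8430408G22Rik, Paqr5, Epha2 and 4930523C07Rik. Muc2, the main secreted mucin of goblet cells, was at 1.53, 1.15, 1.83 and 0 CPM. Krt14 had 0 UMIs in the 109 cells. Areg, which encodes the growth factor amphiregulin, was at 27.4, 33.3, 40.1 and 47.2 CPM against 979, 1262, 519 and 582.5 CPM in the other epithelial cells.

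Genes of the regenerative, fetal-like state that the study followed were also low. Of 18 such genes in the data, 13 reached the level, and of these 8 were 2-fold lower in 4 of 4 libraries and 0 were higher. Over all genes at that level, 4.06% were lower and 9.72% higher. A gene that reaches the level mainly through the other epithelial cells had to differ, so the count is a description only. Ly6a, which encodes the surface protein Sca-1, was at 10.7, 44.8, 303 and 24.6 CPM against 1630, 1665, 1537 and 2344 CPM in the other epithelial cells. In the Tnfr2-/- untreated library 1 cell held 99 of the 166 Ly6a UMIs. It also held 702 Pyy UMIs and 477 of the 478 UMIs of Car1, a marker of absorptive cells. After thinning, a Ly6a UMI was found in 7.62% of enteroendocrine and 79.6% of other epithelial cells (19.3% and 92.9% before). Krt19 was at 268, 359, 768 and 476 CPM against 3198 to 4490 CPM elsewhere. Clu, the clusterin gene, was at 7.62, 18.4, 1073 and 12.3 CPM, and 98.1% of the Tnfr2-/- untreated UMIs came from 1 other cell. That cell had 577 Clu, 35 Chga, 12 Chgb and 1739 Pyy UMIs among 42811, so it held markers of both kinds.

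Cell cycle genes were low. The 16 cell cycle genes summed to 76.2, 170, 281 and 73.8 CPM, against 871.5, 832, 1245 and 364 CPM in the other epithelial cells. Hes1, the Notch target that opposes secretory fate, was at 6.10, 10.3, 58.4 and 32.8 CPM against 120, 186, 190 and 189 CPM, and was 2-fold lower in 4 of 4 libraries. Of 13 dissociation stress genes that reached the level, 1 was lower and 0 were higher, with medians of -0.098, -0.20, 0.093 and 0.0039 log2.

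**Figure D4:**
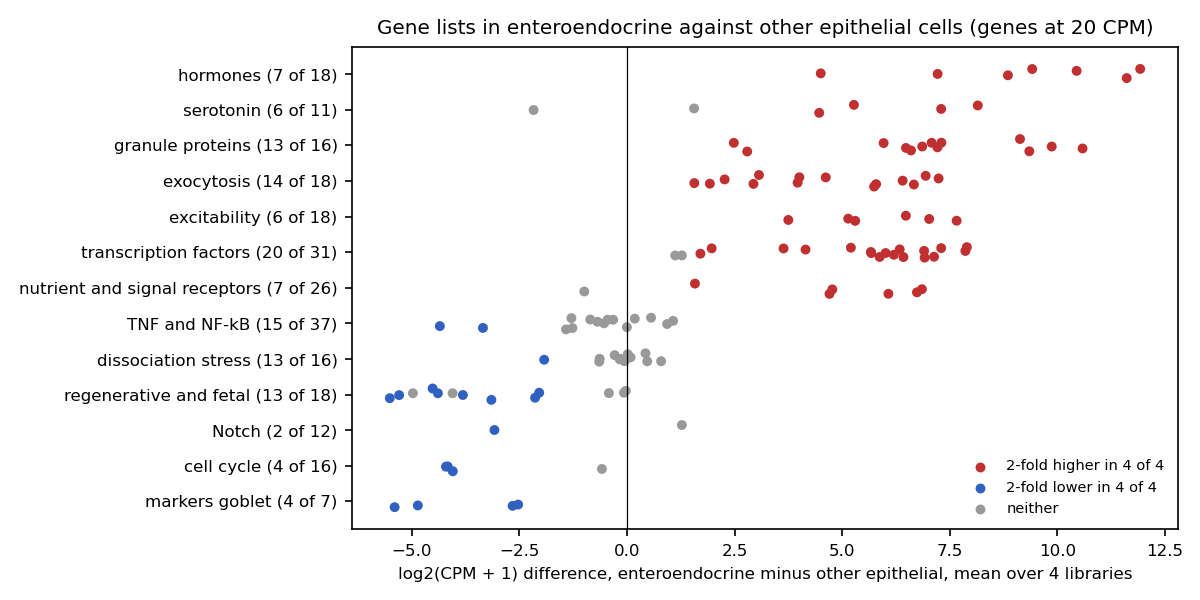
Each point is 1 gene of a list, at its difference from the other epithelial cells averaged over the 4 libraries on the log2(CPM + 1) scale, for genes that reached 20 CPM in either kind of cell in every library. Hormone genes have library medians of 8.20 to 9.73 log2 and granule protein genes of 6.75 to 7.45 log2, stress genes lie near 0, and regenerative, cell cycle and goblet genes below 0.

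Promoters are shown for genes that carry the 2 themes above, the granule proteins and the L cell peptides. They are the RefSeq windows on GRCm38.p6 from 250 bases before to 50 bases after a gene's start. Capitals mark the cAMP response element TGACGTCA, the site of CREB-type factors, in 3 granule genes, and the E-box CAGATG, a sequence that NEUROD1-type factors bind, in 2 hormones. The motifs shown were chosen after matches of 4 motifs were counted.
Chgb, chr2:132781392-132781691, plus strand: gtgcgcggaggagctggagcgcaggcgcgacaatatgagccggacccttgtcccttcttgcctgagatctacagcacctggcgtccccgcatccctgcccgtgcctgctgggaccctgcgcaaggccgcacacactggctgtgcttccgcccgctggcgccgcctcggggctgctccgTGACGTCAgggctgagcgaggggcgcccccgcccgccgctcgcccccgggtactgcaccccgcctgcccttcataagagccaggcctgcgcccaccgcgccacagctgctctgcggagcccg
Scg2, chr1:79439977-79440276, minus strand: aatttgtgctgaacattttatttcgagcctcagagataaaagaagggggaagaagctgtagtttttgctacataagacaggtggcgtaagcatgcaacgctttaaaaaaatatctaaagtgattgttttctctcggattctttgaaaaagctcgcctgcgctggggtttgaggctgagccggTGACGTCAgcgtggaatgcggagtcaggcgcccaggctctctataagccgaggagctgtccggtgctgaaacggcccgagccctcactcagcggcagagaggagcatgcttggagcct
Pcsk1, chr13:75089607-75089906, plus strand: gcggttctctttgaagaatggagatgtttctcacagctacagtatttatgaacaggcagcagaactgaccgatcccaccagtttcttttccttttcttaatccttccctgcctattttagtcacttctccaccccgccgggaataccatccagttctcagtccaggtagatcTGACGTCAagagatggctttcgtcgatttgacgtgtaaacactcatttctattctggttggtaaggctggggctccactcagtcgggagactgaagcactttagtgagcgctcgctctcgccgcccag
Gcg, chr2:62483604-62483903, minus strand: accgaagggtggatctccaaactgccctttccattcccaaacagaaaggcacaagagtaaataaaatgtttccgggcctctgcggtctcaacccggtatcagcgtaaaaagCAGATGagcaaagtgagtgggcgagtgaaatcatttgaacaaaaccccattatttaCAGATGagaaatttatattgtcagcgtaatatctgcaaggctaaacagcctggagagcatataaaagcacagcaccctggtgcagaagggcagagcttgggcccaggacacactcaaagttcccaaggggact
Insl5, chr4:103026679-103026978, minus strand: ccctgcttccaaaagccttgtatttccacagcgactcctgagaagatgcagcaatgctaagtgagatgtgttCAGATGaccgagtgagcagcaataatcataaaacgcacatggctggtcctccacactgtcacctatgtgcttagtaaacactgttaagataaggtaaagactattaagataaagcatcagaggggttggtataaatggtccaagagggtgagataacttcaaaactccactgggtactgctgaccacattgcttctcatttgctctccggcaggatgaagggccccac

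In Chgb, Scg2 and Pcsk1 the element began 72, 68 and 78 bases before the start. TGACGTCA, which reads the same on both strands, was in at least 1 window of 3 of 14 granule genes that had a window of 2 of 18 hormone genes (Sst and Cartpt) and of 2.03% of 27025 genes. Its shorter form TGACG on either strand, which the full element also holds, was in 9 of 14 and in 23.1% of genes. CAGATG on either strand was in 9 of 18 hormone genes, 0 of 14 granule genes and 19.2% of genes. TTCAGCACC, the left end of the RE1 element that the neuronal repressor REST binds, was in 2 of 14 granule genes (Scg2 and Ptprn2) and 0.433% of genes. A match is only a description of the letters in the window.

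Between the genotypes, 126 genes were at least 2-fold higher in Tnfr2-/- enteroendocrine cells in both the untreated and the TNF pair (1.92% of 6555 that reached 20 CPM in both pairs), and 144 were at least 2-fold lower (2.2%). On totals without the hormone and granule genes the counts were 88 and 187. On its own, the untreated pair gave 674 higher and 373 lower and the TNF pair 542 higher and 653 lower, so most differences of 1 pair were not met in the other. Without the highest cell of each library for each gene, 82 of the 126 and 112 of the 144 were still called, and 22 and 26 of the others kept a 2-fold difference in both pairs and missed only the 20 CPM level. Of the 126 higher genes, 30 were on chromosome 2 and 17 on chromosome 19, which held 541 and 251 of the genes tested.

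The genes lowest in Tnfr2-/- after Xist were Hmgn3, Olfr78, Tcerg1l, Rtn1, Zcchc12, Hoxd13 and Vipr2. Hmgn3 (chromosome 9, 83109948 to 83146685, minus strand, GRCm38), a nucleosome-binding protein gene known from endocrine cells, was at 148 and 152 CPM in wildtype, in 25 of 33 and 26 of 31 cells. It had 0 UMIs in the 18 and 27 Tnfr2-/- cells and was thus at least 27.0-fold lower untreated and at least 24.7-fold lower with TNF, against a limit of 3 counts per library. In the other epithelial cells it was at no more than 0.247 CPM in any library, a level at which no difference could be seen there. The mesenchymal cells of the 4 libraries held Hmgn3 at 141, 67.5, 112 and 39.6 CPM, so it was not absent from the Tnfr2-/- cultures.

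Olfr78 (chromosome 7, 102738511 to 102759471, minus strand), a receptor for acetate and propionate, was at 363, 492, 0 and 8.20 CPM. It had a UMI in 20 of 33, 18 of 31, 0 of 18 and 2 of 27 cells, and it was at least 66.3-fold lower in the untreated Tnfr2-/- library. After thinning the counts were 13 of 31, 16 of 29, 0 of 18 and 1 of 27. The Tnfr2-/- cells were lower within each set: in the low-product set Olfr78 was at 200 and 361 CPM in wildtype and at 0 in both Tnfr2-/- libraries, in the peptide set at 543, 96.6, 0 and 5.40 CPM, and in the Tph1 set, with only 1 and 3 Tnfr2-/- cells, at 367, 1044, 0 and 0 CPM. Hmgn3 was likewise at 64.0 and 119 CPM in the low-product wildtype cells and at 0 in those of Tnfr2-/-.

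Tcerg1l, Rtn1, Zcchc12, Hoxd13 and Vipr2 were at 27.4 to 128 CPM in the wildtype libraries and at 0 in both Tnfr2-/- libraries. Vipr2, which encodes a receptor for vasoactive intestinal peptide, was at 27.4 and 40.2 CPM in wildtype and was thus at least 5.01-fold lower untreated and at least 6.54-fold lower with TNF. Hoxd13, a gene of the most posterior body axis, was at 32.0 and 70.1 CPM and differed in the other epithelial cells as well, at 9.18, 27.9, 3.31 and 1.15 CPM. Rtn1, Zcchc12, Tcerg1l and Vipr2 were at no more than 0.124 CPM in the other epithelial cells.

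Among listed genes, several of the granule and of peptide processing were lower in Tnfr2-/-. Of 15 granule protein genes that reached the level, 4 were 2-fold lower in both pairs and 0 higher. Over all genes tested, 2.2% were lower and 1.92% higher. The granule medians were -0.36 and -0.78 log2, against 0.09 and -0.06 log2 for all genes. The 4 lower granule protein genes were Pam, Scg3, Ptprn and Resp18. Pam, whose product adds the C-terminal amide that peptide YY carries, was at 629.7, 402, 162 and 135 CPM, and was found in 28, 29, 17 and 21 cells. Scg3, which encodes secretogranin 3, was at 306.5, 292, 126 and 94.3 CPM. Resp18 was at 181, 243, 3.65 and 16.4 CPM, and 17, 25, 2 and 1 cells had a UMI. Of 16 exocytosis genes 1 was lower, Cadps, which primes dense-core vesicles, at 97.6, 96.6, 3.65 and 18.5 CPM.

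Chga and 23 of 24 listed transcription factors were not called in either direction. Over all 6555 genes tested, 1.92% were called higher and 2.2% lower, so most genes of any kind were not called. Of the 6 enteroendocrine markers, 3 were called lower and 0 higher. Neurod1 was at 317, 507, 383 and 716 CPM, Insm1 at 378, 372, 673 and 441 CPM, and Nkx2-2 at 105, 186, 161 and 203 CPM. Only Foxa2 among the 24 was called, higher in Tnfr2-/- at 39.6, 51.7, 122 and 121 CPM. It lies on chromosome 2, as do Neurod1, Insm1 and Nkx2-2, each of which was higher in Tnfr2-/- in both pairs without being called. The median gene of chromosome 2 was higher in these libraries, and 30 genes on it were called higher and 8 lower. Of 8 receptor genes that reached the level, 2 were lower in both pairs, Olfr78 and Sstr1, the latter at 67.1, 42.5, 14.6 and 20.5 CPM. Of 43 genes of the study's reference list, 8 were lower and 0 higher, against the 2.2% and 1.92% of all genes.

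**Figure D5:**
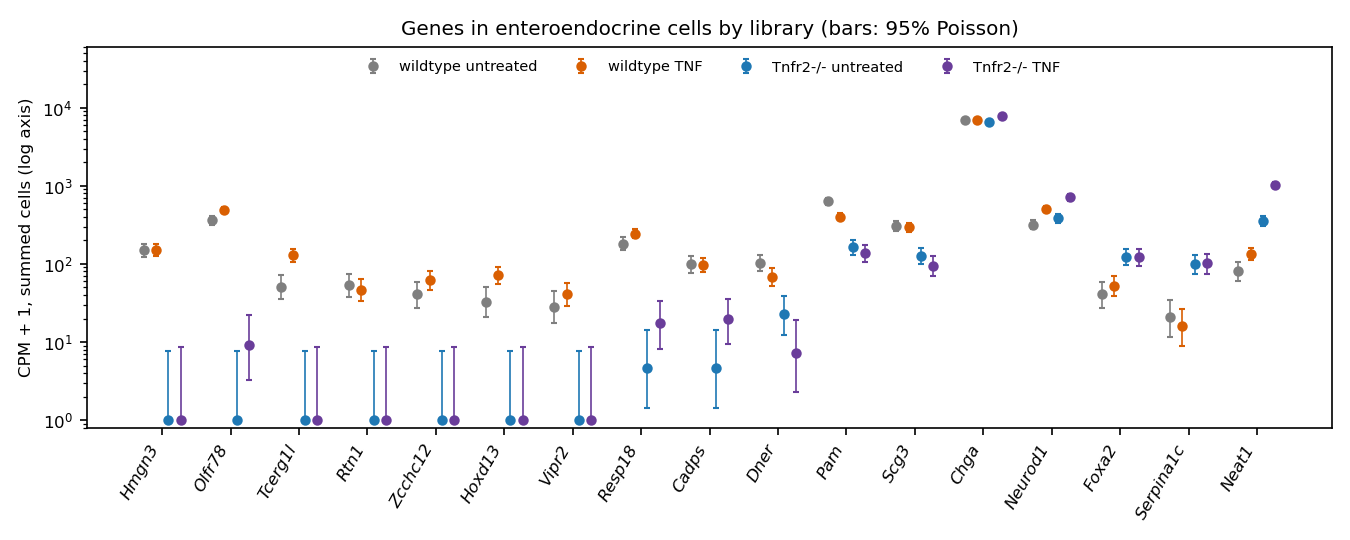
Summed CPM plus 1 on a log axis for 17 genes in each library, with 95% Poisson intervals that cover counting error only. The 7 genes on the left lie at or near 0 in both Tnfr2-/- libraries, whereas Chga lies between 6521 and 7772 CPM, Neurod1 runs from 317 to 716 CPM and Foxa2, Serpina1c and Neat1 are higher in Tnfr2-/-.

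The 8 genes furthest above wildtype by the smaller of the differences were Selenbp1, Ifit1bl1, Hif3a, Mlph, Ppy, AA467197, Serpina1c and Neat1. For some of them 1 cell carried the Tnfr2-/- untreated level, with 98.9% of AA467197 UMIs and all 13 Ifit1bl1 UMIs in a single cell, and Ifit1bl1 and Ppy lost their untreated difference without the highest cells. AA467197 then stood at 1.17 log2 untreated, from 5.84 log2, and was below 20 CPM. Hif3a also fell below 20 CPM untreated, yet its differences were still 3.99 and 3.40 log2, from 4.40 and 3.24 log2. Serpina1c and Neat1 were broader. Neat1, a long noncoding RNA of nuclear paraspeckles on chromosome 19, was at 79.3, 135, 356 and 1029 CPM and was found in 17, 25, 15 and 27 cells. It was also higher in the other epithelial cells, at 174, 563, 621 and 1787 CPM.

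Fewer genes met the rule for TNF treatment. In wildtype, TNF cannot be told apart from the difference in Xist and Y-linked transcripts between the untreated and the treated library. At least 2-fold higher in both genotypes were 49 of 6358 genes (0.771%), and 16 were at least 2-fold lower (0.252%). On TMM scaling the counts were 32 and 17. Without the highest cell of each library for each gene, 31 of the 49 and 10 of the 16 were still called, and 11 and 4 of the others missed only the 20 CPM level.

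The 8 genes furthest above untreated were Dmkn, Cck, Gsap, Plod2, Tnfaip3, Trim31, P4ha2 and Pigr. Without the highest cells, Pigr lost its difference in wildtype, at 0.67 log2. Dmkn, Gsap and Trim31 then missed the 20 CPM level in 1 pair, but stayed higher by 1.96 to 4.74 log2 in both genotypes. Plod2 and P4ha2, which encode enzymes that modify collagen, were at 13.7, 52.9, 10.9 and 71.8 CPM and at 7.62, 25.3, 10.9 and 98.4 CPM. P4ha2 was also higher with TNF in the other epithelial cells, at 6.20, 18.8, 9.94 and 54.3 CPM. Vgf, a granule peptide precursor that neurons induce on stimulation, was at 35.1, 103.5, 42.0 and 172 CPM, and a UMI was found in 8, 20, 6 and 19 cells.

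The 37 listed TNF and NF-kB genes summed to 690.7, 1116, 912 and 1118 CPM in these cells, against 1160, 2147, 1498 and 2857 CPM in the other epithelial cells. Of 14 that reached the level, 3 were 2-fold higher with TNF in both genotypes, 0 were lower, and 10 were higher by any amount in both (71.4%, against 26.7% of all genes tested). The medians were 0.76 log2 in wildtype and 0.47 log2 in Tnfr2-/-, against 0.05 and -0.09 log2 for all genes. The same genes had medians of 0.80 and 0.57 log2 in the other epithelial cells. Nfkbia, which encodes the inhibitor of NF-kB and is induced by it, was at 155.5, 368, 146 and 338 CPM and did not overlap between untreated and treated libraries. Tnfaip3, the gene of the feedback enzyme A20, was at 3.05, 39.1, 14.6 and 53.3 CPM, and Bcl3 at 7.62, 23.0, 5.47 and 22.6 CPM. Without the highest cells Bcl3 missed the 20 CPM level in the Tnfr2-/- pair and was still higher by 1.55 and 2.77 log2.

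Nos2, which encodes inducible nitric oxide synthase, was at 0, 3.45, 12.8 and 12.3 CPM in enteroendocrine cells against 1.65, 142, 34.2 and 263 CPM in the other epithelial cells. Ccl20 gave 1, 1, 4 and 0 UMIs, against 13.1, 122, 42.5 and 75.7 CPM elsewhere, and Cxcl16 was at 0, 9.20, 45.6 and 4.10 CPM against 66.5, 192, 116 and 272 CPM. Ccl2 was at 0, 14.9, 38.3 and 0 CPM, with all 21 UMIs of the Tnfr2-/- untreated library in 1 cell, against 0.846, 24.3, 36.5 and 21.3 CPM elsewhere in the epithelium and at least 761 CPM in the mesenchymal cells of each library. Tnfrsf1a, which encodes TNF receptor 1, was at 33.5, 20.7, 49.3 and 28.7 CPM, near the 30.3 to 33.7 CPM of the other epithelial cells.

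The 8 genes furthest below untreated were Cyp2c55, AC168977.1, Vim, Pak3, Blvrb, Acaa2, 2310033P09Rik and Cst6, and without the highest cells the differences of Cst6 were under 2-fold, at -0.96 and -0.35 log2. AC168977.1 and Cyp2c55 then missed the 20 CPM level, although Cyp2c55 was still at -4.94 and -4.33 log2 and AC168977.1 at -2.07 and -3.89 log2. Pak3, a kinase gene known from developing endocrine cells, was at 94.5, 31.0, 204 and 67.7 CPM and was at most 1.37 CPM in the other epithelial cells. Vim was at 206, 65.5, 135 and 14.4 CPM, with 43.7%, 47.4%, 74.3% and 71.4% of its UMIs in 1 cell. It is the most abundant of the 7 mesenchymal markers in these cells, and the part of RNA from mesenchymal cells was not tested.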

How the data were processed

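The authors aligned 10x Genomics 3′ reads to mm10 with Cell Ranger 5.0.0, per the labels' processing notes, and annotated cells after clustering. The deposited matrix holds raw UMI counts of 30360 genes in 6155 cells. Counts were summed over the enteroendocrine cells of each library and scaled to CPM. Differences are on log2(CPM + 1). A call needed a difference of at least 2-fold with 1 sign in each of the library pairs, or in 4 of 4 libraries against the other epithelial cells and a level of 20 CPM on at least 1 side of each. With 1 library per group there was no test.

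Named genes were the members of the lists, the 20 highest and 10 lowest against the other epithelial cells by the smallest difference over libraries, and, for genotype and for TNF, the 8 genes highest and lowest by whichever pair differed less. The sets of cells, the motifs and the cells with the most Clu and the most Ly6a were chosen after their values were seen. The members and lists were chosen with earlier results of these data known. Cells were thinned to 5000 UMIs by random draw. Scrublet marked 47 of 6155 cells (0.764%) as doublets and 0 of 109 enteroendocrine cells. Gene identifiers matched GENCODE M21 on GRCm38 for 30317 of 30360 genes. Tools were Python 3.11.15, numpy 2.4.6, scipy 1.17.1, scanpy 1.11.5 and, for TMM scaling, edgeR 4.0.16 in R 4.3.3. The call was tried on counts simulated with known changes. Those counts held counting error only, so the trial says nothing about differences between cells, cultures or mice. Alternatives were other pseudocounts, minimum levels, scalings, cell weights and cuts. Some genes of the lists are counted in their lists but not reported here by name.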

Additional observations from a re-analysis of the deposited data

Results flagged for a closer look

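Some hormone genes differed in opposite directions between the pairs of libraries. These differences between pairs were not tested, since each group is 1 library, and each rests on few cells. Gcg differed with TNF by -3.80 log2 in wildtype and 1.49 log2 in Tnfr2-/- cells, and by genotype by -2.64 log2 untreated and 2.65 log2 with TNF. Ghrl differed with TNF by 2.56 log2 in wildtype and -1.14 log2 in Tnfr2-/- cells. Ppy differed with TNF by -1.62 log2 in wildtype and 1.39 log2 in Tnfr2-/- cells. Sct, the secretin gene, differed by genotype by 1.66 log2 untreated and -2.29 log2 with TNF. Maoa, which encodes an enzyme that breaks down serotonin, differed by genotype by 1.38 log2 untreated and -1.01 log2 with TNF.

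The 35 cells to which the deposited table gives no class entered no comparison. They held 5 Pyy UMIs and 124 Tac1 UMIs, the latter in 14 cells with at most 70 in 1 cell. They had 0 UMIs of Chga, Gcg, Insl5, Tph1 or Neurod1, and scrublet marked 25 of the 35 as doublets.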

How the results depend on the processing

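No paired analysis was possible because each group is 1 library, and no library could be left out for the same reason. Of the results recomputed, 1 changed direction: without the highest cell of each library, gene by gene, Ppy was no longer higher in Tnfr2-/- cells, with an untreated genotype difference of -1.82 log2. The cause of the shifts below was not tested beyond what each alternative changes by construction. As a share of all cells, wildtype untreated enteroendocrine cells were 1.27% (1.275). With a cut of 300 UMIs per 1000000 the shares of high cells were 37.6% for Cck, 26.6% for Tac1 and 33.9% for Tph1, and 20.2% had no product. With a cut of 3000 they were 9.17%, 4.59%, 6.42% and 62.4%. Against the other epithelial cells, genes higher and lower numbered 1399 and 582 with no minimum level, 257 and 129 at 50 CPM, 313 and 535 with TMM, 333 and 472 with median of ratios, and 376 and 400 without the highest cell, an alternative chosen after seeing the data. Between genotypes they numbered 61 and 94 with a pseudocount of 10 CPM, 507 and 835 with no minimum, and 52 and 58 at 50 CPM. With TNF they numbered 19 and 6, 408 and 281, and 20 and 6 under these settings, 32 higher with TMM, and 37 lower as a mean over cells. The chromosome 2 median (untreated) was 0.37 as a mean over cells, and that of chromosome 19 (untreated) was 0.49 at 50 CPM. Leaving out scrublet doublets moved no call and no count by over 1.5 times. Since 0 of 109 enteroendocrine cells were marked, this alternative left their sums unchanged and says nothing about mixed cells among them. Among named genes, Hif3a, Gsap and, for TNF, Trim31 missed the 20 CPM level with TMM and with median of ratios scaling, with differences still over 2-fold, and Cst6 was at -0.084 log2 in Tnfr2-/- without the cell with the most Clu. Of 567 genes higher than in the other epithelial cells, 191 lost the call without the highest cells, 86 of them by the 20 CPM level alone. With 18 to 33 cells a library, depth limits genes under 20 CPM, and single cells limit hormone levels.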

Other observations

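Vim and Tac1 gave values of a kind not described above. In the Tph1 set Vim was at 369 CPM and was found in 12 of 20 cells, against 44.2 CPM in the peptide set and 15.8 CPM in the low-product set, and the Tph1 set was above the peptide set in 4 of 4 libraries. Tac1 was not limited to enteroendocrine cells: in the wildtype untreated library it was at 51.6 CPM in the other epithelial cells, of which 27.7% had a UMI once the cells that met the enteroendocrine marker rule were left out. The other libraries held 8.72, 6.91 and 3.36 CPM.

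Pak3 was at 166 CPM in the low-product set, 46.9 CPM in the peptide set and 10.3 CPM in the Tph1 set. Vwa5b2, one of the granule list, was likewise highest in the low-product set, at 261 CPM against 73 and 133 CPM, in 4 of 4 libraries.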
